A study of Mus musculus with 2 samples.

Results

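The Dlx genes Dlx1, Dlx2, Dlx5 and Dlx6 and the non-coding RNA gene Dlx6os1 were followed through single Sox1-GFP+ cells of mouse brain and tail. They were taken by symbol and are 5 of the 19608 genes listed in the 2 count tables. Sox1 is a transcription factor gene of neural progenitors, and in the reporter mice used here GFP marks cells in which it is or recently was active. Freshly dissociated cells of the genotype Sox1-GFP+ were sorted by FACS after trypsin treatment, from the tail in one library and from the brain in the other, and captured on the BD Rhapsody system without culture. The study describes the tail as postnatal and the brain as adult. With 1 library for each tissue there was no replicate, so no test was made, and tissue, age, animal and library cannot be told apart. Where a value is given with an interval, the interval covers counting error only.

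Dlx genes encode homeodomain transcription factors, DNA-binding proteins that lie in the genome as pairs transcribed towards each other. In the forebrain they are known from the ventral progenitor zones, where they act in the making of GABAergic interneurons, and in the adult they are known from the cells that travel from the subventricular zone to the olfactory bulb. Dlx6os1, also called Evf2, is a long non-coding RNA transcribed against Dlx6 that is known to act on the expression of its neighbours. GABAergic neurons of the spinal cord are known to use other transcription factors, among them Gata2, Gata3 and Tal1.

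In the mouse genome (GRCm38, GENCODE vM21 annotation), Dlx1 (ENSMUSG00000041911) lies on the plus strand of chromosome 2 at 71528113 to 71533981. Dlx2 (ENSMUSG00000023391) lies opposite on the minus strand at 71543408 to 71546754, and 9426 bases separate the pair. On chromosome 6, Dlx6 (ENSMUSG00000029754, plus strand, 6863334 to 6868568) and Dlx5 (ENSMUSG00000029755, minus strand, 6877805 to 6882085) are 9236 bases apart. Dlx6os1 (ENSMUSG00000098326, minus strand) is annotated there as a short RNA at 6871488 to 6871633, whereas RefSeq gives a long non-coding RNA at 6820543 to 6871627 that covers all of Dlx6. Whether strand was used in counting is not given in the sources used here, so molecules of Dlx6 and Dlx6os1, and of Dlx1 and its antisense gene Dlx1as, which share 335 exon bases, may have been assigned to one another.

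RefSeq windows of 250 bases before a transcript start (GRCm38.p6) were at hand for 3 of the 5 genes. Those of Dlx2 and Dlx6os1 are shown and were searched for TAATTA, the core motif bound by many homeodomain proteins. The motif is its own reverse complement, so a match counts for both strands, and matches are in capitals. The Dlx2 window is chr2:71546755-71547004, and the 2 Dlx6os1 windows are chr6:6869534-6869783 (upstream start) and chr6:6861684-6861933 (downstream start), all on the minus strand.
Dlx2: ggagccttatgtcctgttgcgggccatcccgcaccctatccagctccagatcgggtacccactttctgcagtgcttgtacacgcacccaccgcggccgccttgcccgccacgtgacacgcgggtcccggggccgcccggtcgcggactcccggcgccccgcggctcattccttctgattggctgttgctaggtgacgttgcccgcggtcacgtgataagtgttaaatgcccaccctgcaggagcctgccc
Dlx6os1, upstream start: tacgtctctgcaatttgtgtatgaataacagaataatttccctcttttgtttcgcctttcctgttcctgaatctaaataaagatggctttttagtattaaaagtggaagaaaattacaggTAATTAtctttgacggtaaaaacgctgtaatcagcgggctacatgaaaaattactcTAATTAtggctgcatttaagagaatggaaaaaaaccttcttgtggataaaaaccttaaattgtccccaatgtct
Dlx6os1, downstream start: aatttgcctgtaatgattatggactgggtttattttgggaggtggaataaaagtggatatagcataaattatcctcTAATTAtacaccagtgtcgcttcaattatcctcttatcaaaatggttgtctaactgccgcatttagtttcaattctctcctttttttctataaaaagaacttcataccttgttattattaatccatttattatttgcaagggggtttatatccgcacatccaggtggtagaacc
The Dlx2 window held 0 matches and had a GC content of 66.4%, above the median of 52.4% over all 32851 windows. Both Dlx6os1 windows were AT-rich, with a GC content of 33.2% and 2 matches at the upstream start and a GC content of 34% and 1 match at the downstream start. At least 1 match stood in 1590 of the 32851 windows (4.84%) and at least 2 in 146 (0.444%). A match describes letters in a window and is not a measured binding site. The Dlx1 window on the plus strand, with a GC content of 68% and 0 matches, lay within annotated exons and is not shown. Both Dlx6os1 windows lie inside the RefSeq extent of that gene. Dlx5 and Dlx6 are named only.

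The brain library held 7988 cells after filtering, with 6424466 molecules and a median of 696 molecules per cell, and the tail library held 1964 cells, with 2817103 molecules and a median of 1282.5. Cells were clustered within each library with all Dlx genes left out of the variable genes. Brain cluster 1 (1562 cells) had 10 of 10 neuroblast markers, was led by Stmn2, Islr2, Gad1, Map1b and Dcx, and is called neuroblast-like. Cluster 5 (468 cells) had 10 of 10 markers of dividing cells, among them Top2a, and is called cycling-like. Clusters 0 and 3 (2961 cells) had 3 astroglial markers each, among them Agt and Slc6a11 in both, and are called astroglial-like. Slc1a3, a glial glutamate transporter gene, stood there at 6514 CPM, its molecules over all molecules of the class, scaled up, and at 455 CPM in cluster 1. Clusters 2 and 4 had 2 astroglial markers and were left unnamed. Tail cluster 6 (114 cells) had 9 of 10 markers of GABAergic neurons that contact cerebrospinal fluid and was led by Pkd2l1, the ion channel gene that marks those neurons. The libraries shared 29 barcodes, of which 18 passed the filters in both.

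Dlx molecules were found almost entirely in the neuroblast-like and cycling-like cells of the brain. These classes made up 25.4% of the brain cells and held 7001 of the 7088 Dlx molecules (98.8%), with 70.1% in neuroblast-like and 28.7% in cycling-like cells. They also held 1761 of the 1820 brain cells in which any of the 5 genes was found (96.8%). To compare cells of unequal depth, a random draw of 400 molecules was taken from each cell, and cells with fewer were left out, which removed 8.99% of brain cells and 0.967% of tail cells. At that depth, 1124 of 1363 neuroblast-like cells held a molecule of at least 1 of the 5 genes (82.5%, exact Clopper-Pearson 95% interval 80.3 to 84.4). The share was 57.8% (53.2 to 62.4) in cycling-like cells, 269 of 465. Without thinning the shares were 89.9% and 76.3%, at median depths of 595 and 1387 molecules.

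**Figure D1:**
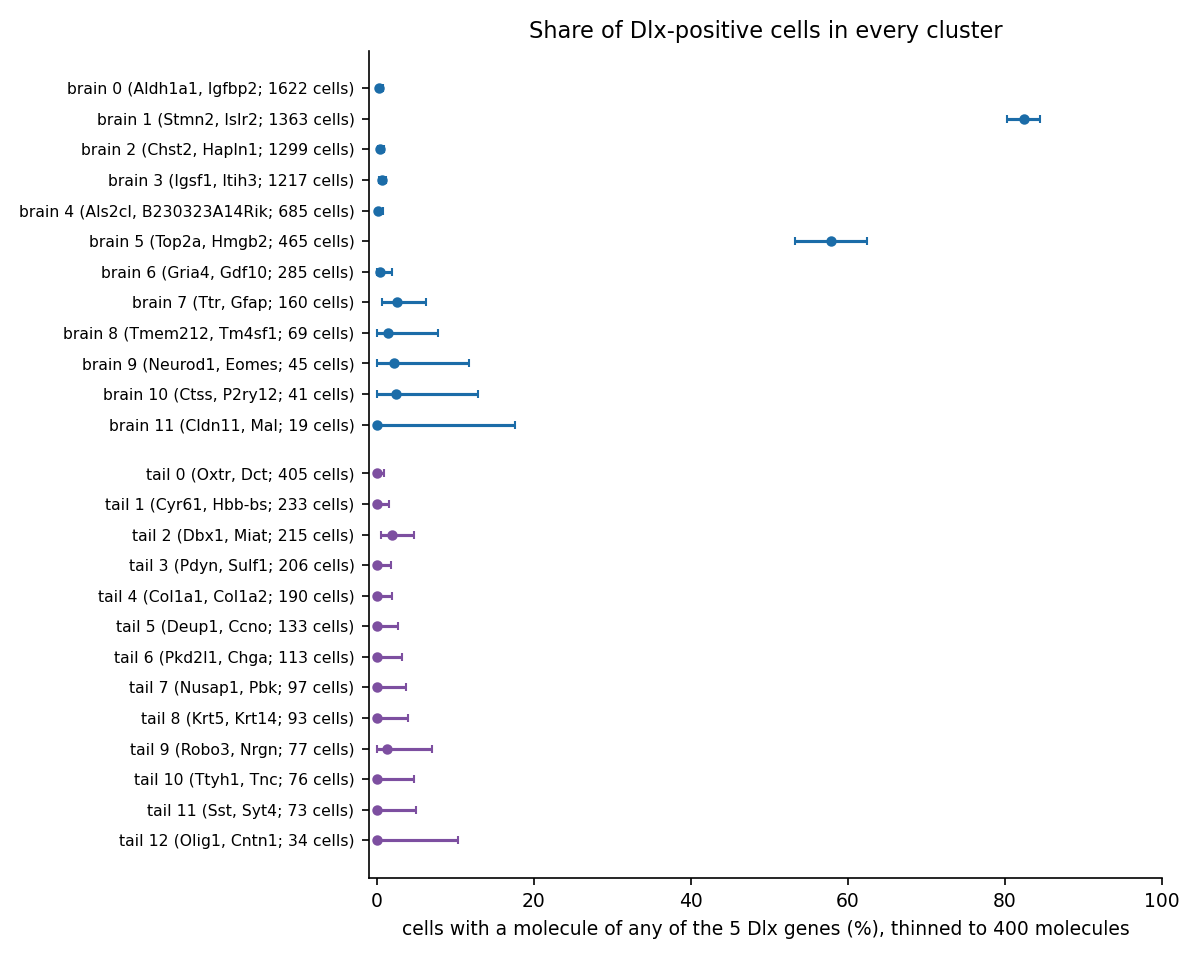
Share of cells with a molecule of any of the 5 Dlx genes (percent, cells thinned to 400 molecules) in each cluster of the brain and tail libraries. Points are shares and bars exact 95% intervals; brain clusters 1 (82.5%) and 5 (57.8%) stand apart from all other clusters.

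Outside both classes, 26 of 5442 thinned brain cells held a Dlx molecule (0.478%, 0.312 to 0.699). Microglia-like cells, immune cells of the brain in which these genes are not known to be expressed, held one in 1 of 41 cells (2.44%, 0.0617 to 12.9), at a median of 631.5 molecules per cell before thinning. In that class 6 of the 7 Dlx molecules lay in 1 cell, so it gives only a coarse background. The share in astroglial-like cells, 12 of 2839 or 0.423% (0.219 to 0.737), and in the neuron-like cluster 9, 1 of 45 or 2.22%, was within that interval. From 41 cells the interval is too wide to tell background from low expression, so neither reading is made for these 2 shares. The shares in neuroblast-like and cycling-like cells lay above the whole interval. The same held for levels. Summed over the 5 genes, the level was 4940 CPM (exact Poisson 95% interval 4804 to 5080) in neuroblast-like cells and 2924 CPM (2799 to 3054) in cycling-like cells. The next highest cluster was the macrophage- and microglia-like cluster 10, at 246 CPM (99.1 to 508) from 7 molecules, followed by cluster 9 at 174 CPM (74.9 to 342), the ependymal-like cluster 8 at 74.5 CPM (29.9 to 153) and cluster 7, led by Ttr and Gfap, at 60.7 CPM (26.2 to 120). These 4 neighbours in the order were not separated by their intervals. All 7 molecules of cluster 8 lay in 1 of 71 cells, and 1 cell of cluster 9 held 4 of its 8. The intervals count molecules and do not cover the spread between cells. By its interval, cluster 9 lay above the astroglial-like class, which was at 9.30 CPM (5.76 to 14.2), but few cells stand behind this order. In the remaining brain clusters the summed level was between 5.81 CPM (cluster 0) and 39.5 CPM (cluster 11, the oligodendrocyte-like cells, from 2 molecules in 1 cell).

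**Figure D2:**
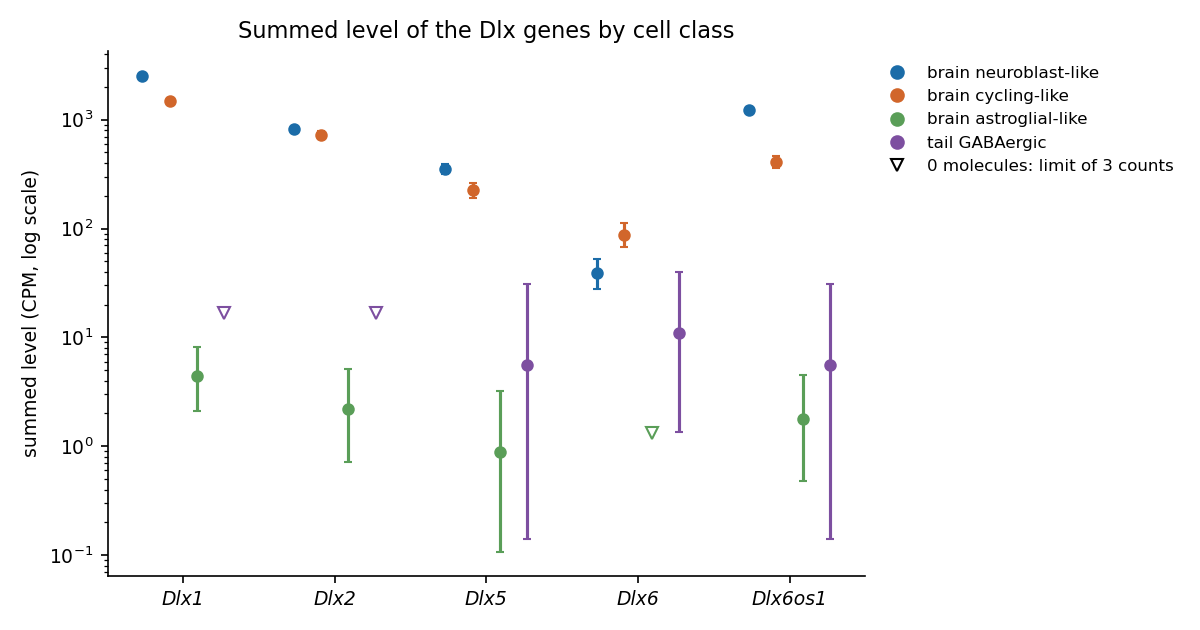
Summed level of each Dlx gene (CPM, log axis) in neuroblast-like, cycling-like and astroglial-like brain cells and in tail GABAergic cells. Bars are exact Poisson 95% intervals and open triangles mark classes with 0 molecules, drawn at the limit that a count of 0 allows; for Dlx1, Dlx2, Dlx5 and Dlx6os1 both brain classes of neuroblast-like and cycling-like cells lie far above the other classes.

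Dlx1, of the chromosome 2 pair, was found in 60.7% (58.0 to 63.3) of thinned neuroblast-like cells, 39.6% (35.1 to 44.2) of cycling-like cells and 0.211% of astroglial-like cells. Its level was 2494 CPM (2397 to 2594) in neuroblast-like cells, from 2509 molecules, 1474 CPM (1386 to 1568) in cycling-like cells and 4.43 CPM in astroglial-like cells, from 10 molecules. Dlx1 was therefore highest in neuroblast-like cells, and the intervals of the 3 classes did not meet. Dlx2, its neighbour and close relative in function, stood at 822 CPM (767 to 880) in neuroblast-like cells, 727 CPM (665 to 793) in cycling-like cells and 2.21 CPM in astroglial-like cells. For Dlx2 the neuroblast-like and cycling-like levels were close. The shares gave 26.7% (24.4 to 29.1) against 20.4% (16.9 to 24.4) after thinning, whereas without thinning 37.1% of neuroblast-like and 49.1% of the deeper cycling-like cells held Dlx2, an order that goes against the CPM and is not read.

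Dlx5, of the chromosome 6 pair, was found in 14.3% (12.5 to 16.3) of neuroblast-like, 8.60% (6.22 to 11.5) of cycling-like and 0.0352% of astroglial-like cells after thinning. Its level was 351 CPM (315 to 389) in neuroblast-like cells, 226 CPM (192 to 264) in cycling-like cells and 0.886 CPM, or 2 molecules, in astroglial-like cells. Its partner Dlx6 was the exception among the 5 genes. The level of Dlx6 was 38.8 CPM (27.6 to 53.0) in neuroblast-like cells and 87.8 CPM (67.2 to 113) in cycling-like cells, and no molecule of it was found in astroglial-like cells. Its thinned shares had the same order, 1.25% (0.728 to 1.99) and 3.66% (2.14 to 5.79). Dlx6os1, the non-coding RNA, had the opposite pattern: 37.1% (34.5 to 39.7) of neuroblast-like and 15.1% (11.9 to 18.6) of cycling-like cells held it after thinning, and its level was 1235 CPM (1167 to 1305) in the former and 409 CPM (363 to 459) in the latter. In astroglial-like cells Dlx6os1 was at 1.77 CPM, from 4 molecules. Molecule counts were not divided by transcript length, so levels are compared between classes and not between genes.

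A gene was called when the whole exact 95% interval of its ratio lay beyond 4-fold and at least 50 molecules were counted over both classes. Between neuroblast-like and astroglial-like cells, 10.2% of the 7588 genes tested were called higher, and 4 of the 4 Dlx genes tested were. Here and in cycling-like over astroglial-like cells, the Dlx genes reached the minimum through the class where they are high. These counts of calls are therefore not independent of that class. The ratio was 563 (306 to 1176) for Dlx1, 371 (158 to 1147) for Dlx2, 396 (109 to 3285) for Dlx5 and 697 (272 to 2562) for Dlx6os1. Dlx6, with 39 molecules, was below the minimum, and its level was at least 29.2-fold higher in neuroblast-like cells. The median log2 ratio of the Dlx genes tested was 8.73, beside 0.57 over all genes tested. Between cycling-like and astroglial-like cells, 11.5% of 7280 genes were called higher, and 5 of 5 Dlx genes were, from a ratio of 231 (89.2 to 853) for Dlx6os1 to 333 (180 to 697) for Dlx1, with Dlx6 at least 66.1-fold higher. Of all genes called in these comparisons, 50.6% and 56.9% were higher in the first class, and with TMM scaling 23.8% and 28.6% were, while the calls of the Dlx genes were the same under TMM and median-ratio scaling. The astroglial-like level itself moved with the class: 9.30 CPM (5.76 to 14.2) over the 5 genes, 14.7 CPM at clustering resolution 1.2, 16.2 CPM with TMM scaling and 53.4 CPM when cells were assigned by a molecule of Top2a, then Dcx or Gad2, then Slc1a3.

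Within the brain, the shift from cycling-like to neuroblast-like cells was not the same for all members. The level in cycling-like over neuroblast-like cells was 0.33 (0.29 to 0.38) for Dlx6os1, 0.59 (0.55 to 0.64) for Dlx1 and 0.64 (0.53 to 0.78) for Dlx5. It was 0.88 (0.79 to 0.99) for Dlx2 and 2.27 (1.49 to 3.48) for Dlx6. None of the 5 was called beyond 4-fold, beside 2.81% of 5658 genes called higher and 0.513% called lower in cycling-like cells. The make-up of the Dlx molecules differed accordingly. Of all molecules of the 5 genes, Dlx6os1 took 24.99% (23.8 to 26.2) in neuroblast-like and 14.0% (12.5 to 15.6) in cycling-like cells, Dlx2 took 16.6% (15.6 to 17.7) and 24.9% (23.0 to 26.8), and Dlx6 took 0.785% (0.559 to 1.07) and 3.00% (2.31 to 3.84). The share taken by Dlx1 was 50.5% and 50.4%, and by Dlx5 7.10% and 7.73%. With cells assigned by single genes as above, the order of Dlx2 changed, with overlapping intervals. Its level was then 832 CPM (747 to 923) in cycling and 752 CPM (695 to 813) in neuroblast cells. Dlx5 was at 277 CPM (229 to 332) and 300 CPM (264 to 340), no longer apart. Dlx1, Dlx6os1 and Dlx6 kept their order.

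The cycling-like cells were not uniform in Dlx. Dcx encodes doublecortin, a microtubule protein of migrating neuroblasts, and 221 of the 468 cycling-like cells held a molecule of it, at a median of 1363 molecules per cell against 1426 in the 247 without. After thinning, 72.4% (66.0 to 78.2) of the cycling-like cells with Dcx and 44.7% (38.3 to 51.1) of those without held a Dlx molecule. Each member had a higher level in the cells with Dcx, although for Dlx2 the intervals met. Dlx1 stood at 1144 CPM (1037 to 1259) without Dcx, 1845 CPM (1701 to 1999) with Dcx and 2494 CPM in neuroblast-like cells. Dlx6os1 had the same order, from 280 CPM (229 to 340) through 553 CPM (475 to 640) to 1235 CPM. Dlx5 was at 155 CPM (118 to 201), 306 CPM (249 to 372) and 351 CPM, so that the cycling-like cells with Dcx were close to the neuroblast-like cells.

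Dlx2 differed less over the 3 groups of cells, at 645 CPM (566 to 733), 819 CPM (724 to 923) and 822 CPM. Dlx6 peaked in the middle group: it was at 35.4 CPM (18.9 to 60.5) without Dcx, 147 CPM (108 to 194) with Dcx and 38.8 CPM in neuroblast-like cells, and the first and last of these were not separated by their intervals. The thinned share of cycling-like cells with Dlx6 was 1.23% without and 6.33% with Dcx. Among neuroblast-like cells the presence of Dcx made little difference, with a Dlx molecule in 81.7% (79.0 to 84.2) of cells with Dcx and 83.9% of those without, and a summed level of 4949 CPM and 4923 CPM.

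**Figure D3:**
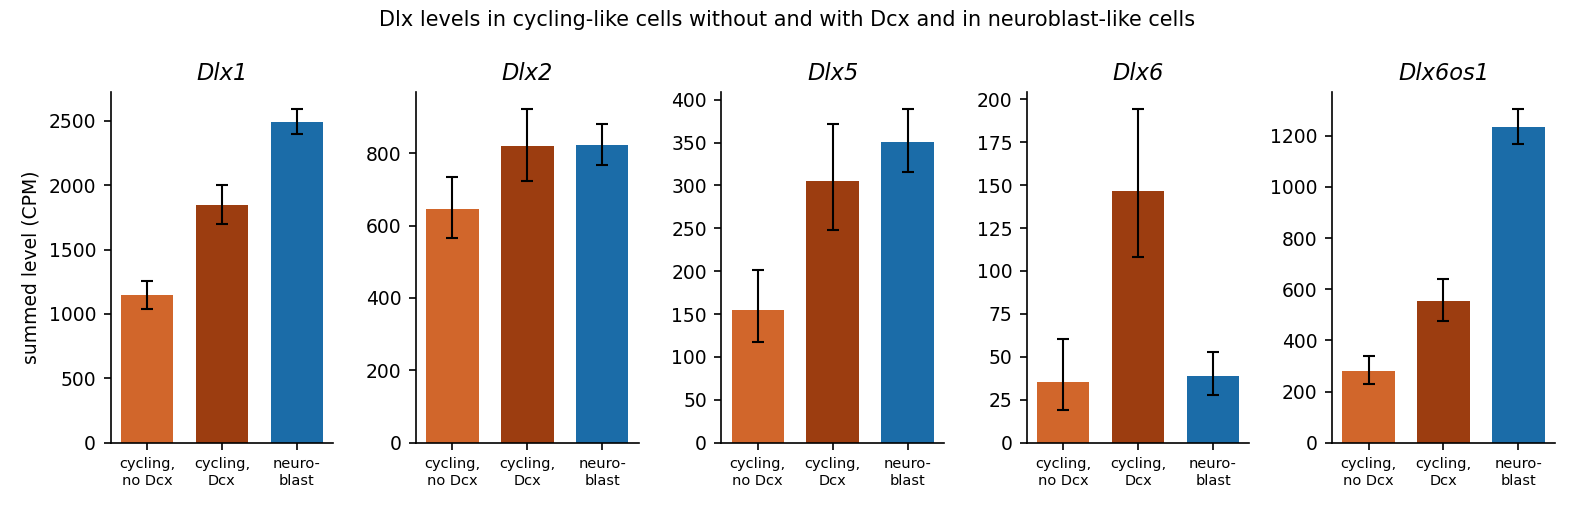
Level of each Dlx gene (CPM, each panel on its own linear axis from 0) in cycling-like cells without Dcx, cycling-like cells with Dcx and neuroblast-like cells, as bars with exact Poisson 95% intervals. Dlx1 and Dlx6os1 are highest in neuroblast-like cells, Dlx2 is level between the last 2 groups and Dlx6 is highest in cycling-like cells with Dcx (147 CPM).

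Single cells held few Dlx molecules each. A neuroblast-like cell with any of the 5 genes held a median of 3 molecules of them and at most 15, and a cycling-like cell a median of 5 and at most 18. No cell of these classes held more than 11 molecules of Dlx1. Dlx6 was found as 1 molecule in each of 39 neuroblast-like cells and as up to 4 in a cycling-like cell. Neuroblast-like cells with a Dlx molecule had a median of 608 molecules of all genes and those without had 493.5. In cycling-like cells the medians were 1383 with and 1405 without, so the cells without Dlx were not shallower there.

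Co-detection was read in thinned cells. Of 1363 neuroblast-like cells, 239 held none of the 5 genes, 502 held 1, 473 held 2, 137 held 3, 11 held 4 and 1 held all 5, so that 45.6% (43.0 to 48.3) held 2 or more. Among 465 cycling-like cells 23.4% (19.7 to 27.6) held 2 or more. None of the astroglial-like cells held more than 1 of the genes. Without thinning 60.8% of neuroblast-like and 60.5% of cycling-like cells held 2 or more. Those unthinned shares compare cells of unequal depth, at medians of 595 and 1387 molecules, and are not read as an absence of a gap. When cells were thinned to a greater equal depth, the share was again higher in neuroblast-like cells, as given under processing below.

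Dlx1 and Dlx2 were found together in 238 neuroblast-like cells, 17.5% (15.5 to 19.6), beside a product of the single shares of 16.2%. The product is the share that would be found if the genes were spread over the cells without regard to each other, and it is a reference value, not a test. Dlx1 and Dlx6os1 shared 306 neuroblast-like cells (22.5%), and the product was also 22.5%. Over all 10 pairs in neuroblast-like cells the ratio of observed to product ran from 0.661 to 1.16, with the lowest value from the 3 cells that held Dlx2 and Dlx6. For the 6 pairs without the scarce Dlx6 it ran from 0.999 to 1.08, close to the product.

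In cycling-like cells the values were above the product for every pair except Dlx5 with Dlx6os1. At this depth the product still lay at the edge of or within the intervals. Dlx1 and Dlx2 were found together in 50 cells, 10.8% (8.09 to 13.9) beside 8.08%, a ratio of 1.33. The ratio was 1.34 for Dlx1 with Dlx6os1, from 37 cells, 1.52 for Dlx1 with Dlx5, from 24 cells, and 1.78 for Dlx1 with Dlx6, from 12 cells. Among the pairs above the product without Dlx1, the ratio ran from 1.15 for Dlx2 with Dlx6, from 4 cells, to 1.47 for Dlx2 with Dlx5, from 12 cells. Without thinning, Dlx1 and Dlx2 shared 41.7% (37.2 to 46.3) of cycling-like cells beside a product of 32.6%. Dlx5 and Dlx6os1, neighbours on chromosome 6, were at the product after thinning, with a ratio of 0.996, and above it without, at 15.6% (12.4 to 19.2) beside 9.05%. Read the other way, Dlx1 was found in 52.6% (42.1 to 63.0) of cycling-like cells with Dlx2 and in 36.2% (31.3 to 41.3) of those without, and in neuroblast-like cells in 65.4% and 59.0%.

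**Figure D4:**
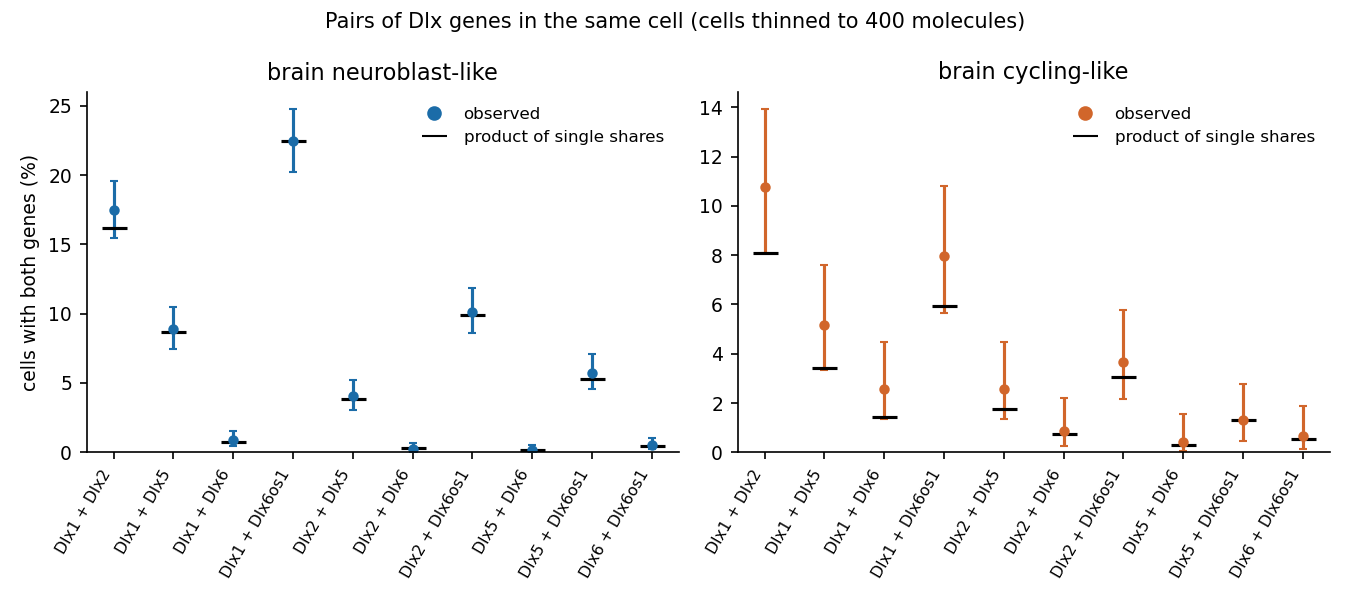
Share of cells with both genes (percent, y axis, scaled separately in the 2 panels) for the 10 pairs of Dlx genes (x axis), in neuroblast-like and cycling-like cells thinned to 400 molecules. Points with bars are observed shares with exact 95% intervals and black dashes the products of the single shares. Neuroblast-like points sit close to the dashes (17.5% and 16.2% for Dlx1 with Dlx2). Cycling-like points sit above the dashes for every pair except Dlx5 with Dlx6os1.

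Cycling-like cells with a Dlx molecule (269 thinned cells) and without one (196) also differed in other genes. Gsx1, a homeobox gene of early ventral progenitors, was found in 1.86% (0.606 to 4.28) of the cells with Dlx and 7.14% (3.96 to 11.7) of those without, and the glial Slc1a3 in 7.06% (4.31 to 10.8) and 21.9% (16.4 to 28.4). Both were thus at lower shares beside Dlx, with the intervals of Gsx1 overlapping slightly and those of Slc1a3 apart. Sp9 and Dcx had the opposite order. The zinc finger factor gene Sp9 was found in 17.8% (13.5 to 23.0) of cells with Dlx and 4.08% (1.78 to 7.88) of those without. Dcx was found in 29.7% (24.3 to 35.6) and 11.7% (7.59 to 17.1). For 5 further factors of the ventral forebrain the intervals overlapped. Meis2, a homeobox gene of many forebrain cells, was found in 29.7% of cells with Dlx and 25.5% of those without, Etv1 in 9.67% and 5.10%, Pax6 in 9.67% and 7.65%, Gsx2, the close relative of Gsx1, in 2.60% and 1.02%, and Tshz1 in 4.46% and 7.65%.

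Neuroblast-like cells without Dlx (239 cells) and with it (1124 cells) held Gad1, the gene of a GABA-synthesising enzyme, in 26.8% and 29.3%, Sp9 in 16.3% and 22.2% and Dcx in 54.4% and 49.0%, with overlapping intervals for each. Slc1a3 was found in 9.62% (6.20 to 14.1) of those without and 4.89% (3.71 to 6.32) of those with Dlx, the same order as in cycling-like cells. Over all thinned brain cells, Gad1 was found in 25.5% of the 1419 cells with a Dlx molecule and 1.45% of the 5851 cells without, and Slc1a3 in 6.55% and 79.4%. The share of cells with Dlx fell with each further molecule of Slc1a3, from 52.4% of cells with none to 5.86% with 1, 1.56% with 2 and 0.724% with 3 or more. It was 15.5% in cells with no Gad1, 79.8% with 1 molecule, 83.8% with 2 and 100% (11 of 11 cells) with 3 or more.

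**Figure D5:**
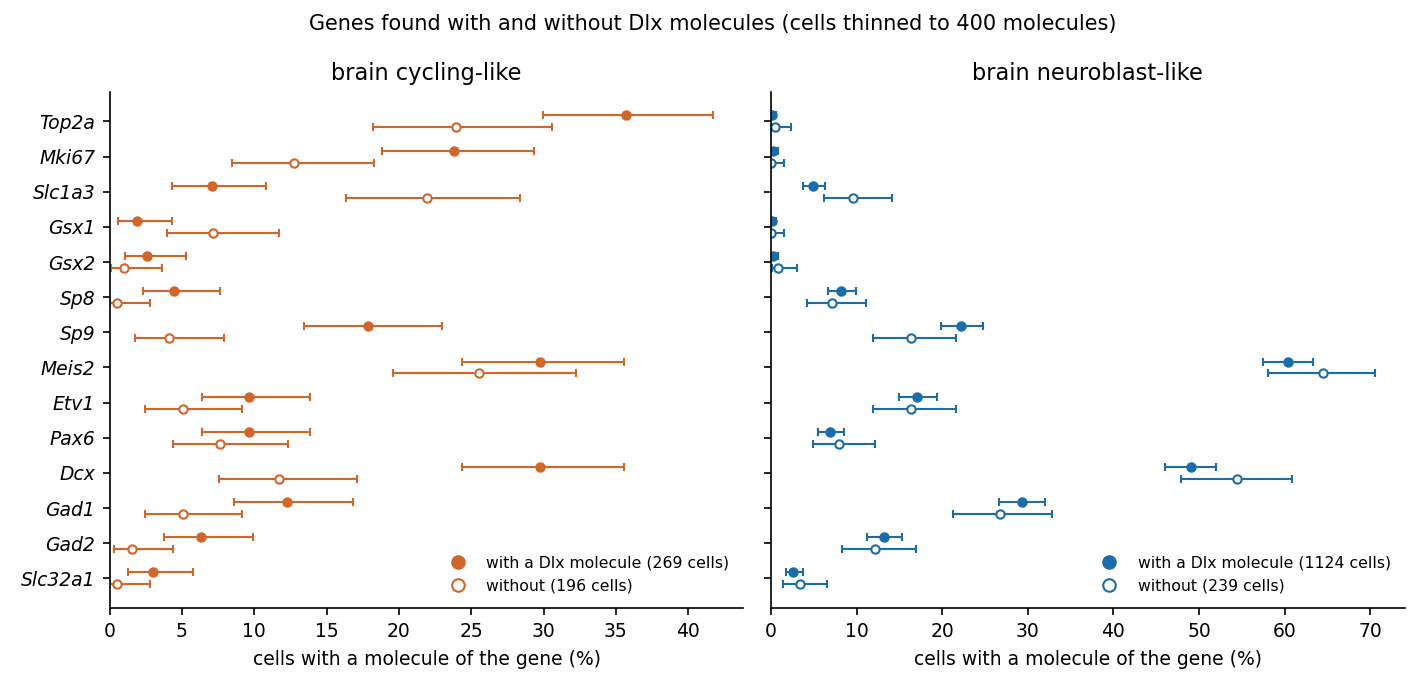
Share of thinned cells (percent, exact 95% intervals) with a molecule of each listed gene, in cells with and without a Dlx molecule, for cycling-like (269 and 196 cells) and neuroblast-like cells (1124 and 239 cells). In cycling-like cells Gsx1 and Slc1a3 are lower and Sp9, Dcx, Mki67 and Top2a higher in the cells with Dlx, with overlapping intervals for Gsx1 and Top2a.

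A list of 20 transcription factors of the ventral forebrain, of which 19 are in the tables, was set beside the Dlx genes. Of 11 tested between neuroblast-like and astroglial-like cells, 8 were called higher. Among them were Sp9 (ratio 249), Sp8 (238), Meis2 (63.3), Pbx3 (48.2), Etv1 (16.8) and Tshz1 (13.2). Pax6, also used by astroglia, had a ratio of 4.66 and was not called. In cycling-like over astroglial-like cells 8 of 12 were called higher, among them Gsx1 (at least 67.2-fold), and 7 with TMM scaling, without Etv1. Between cycling-like and neuroblast-like cells 2 of 12 were called, both higher in cycling-like cells, among them Gsx1, with a ratio of 18.0 (7.30 to 57.3). The Dlx genes had ratios of 0.33 to 2.27 in that comparison.

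Cluster 9 (45 cells, median 1029 molecules) gave a comparison with other neuron-like cells of the same library. It was led by Neurod1, Eomes, Nrgn, Calb2 and Tbr1, genes known from the glutamatergic lineage, and its Dcx level was close to that of neuroblast-like cells, with a ratio of 0.95 for the latter over the former. Only 0.308% of 3893 genes were called higher in neuroblast-like cells, and 4 of 4 Dlx genes tested were. They reached the molecule minimum through the neuroblast-like cells, so this count is not independent of that class. The ratio was 23.0 (9.84 to 70.9) for Dlx1, 28.5 (7.86 to 235) for Dlx6os1 and 37.9 (6.78 to 1499) for Dlx2, and Dlx5 was at least 5.39-fold higher. Of 9 ventral forebrain factors tested 2 were called higher, among them Sp9. Few cells stand behind cluster 9, and it was chosen for this comparison after the clusters were seen.

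In the tail, Dlx molecules were nearly absent, also from the GABAergic cells. Of 113 thinned GABAergic cells of tail cluster 6, 0 held a Dlx molecule, which allows a share of up to 2.65%, and without thinning 1 of 114 did (0.877%, 0.0222 to 4.79), at a median of 1516 molecules per cell. That cell held 1 molecule of Dlx5, 2 of Dlx6 and 1 of Dlx6os1. Dlx1 and Dlx2 were not found in the class at all. Among all tail cells with a molecule of Gad2, whatever their cluster, 0 of 93 held a Dlx molecule after thinning, which allows up to 3.23%, and 1 of 93 did without it.

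Neuroblast-like brain cells were higher than tail GABAergic cells by at least 150-fold for Dlx1 and at least 49.6-fold for Dlx2, set against the 3 counts that a count of 0 allows. The ratio was 223 (40.0 to 8826) for Dlx6os1 and 63.5 (11.3 to 2513) for Dlx5, each against 1 molecule in the tail, and 3.51 (0.91 to 29.97) for Dlx6, against 2. Of 4333 genes tested, 1.66% were called higher in the neuroblast-like cells, and 4 of 4 Dlx genes tested were. They reached the molecule minimum through the neuroblast-like cells, so this count is not independent of that class. Dlx6 was below the minimum and was not tested, and its interval lay across 4-fold. Ranked by the lower bound of the exact interval, which was 122 for Dlx1 and 40.2 for Dlx2, the 5 genes highest in neuroblast-like cells included Dlx1, Dlx2 and Dlx6os1, and Islr2 (at least 66.3-fold), which encodes a membrane protein of growing axons. The 5 highest in the tail cells were Pkd2l1 (at least 847-fold), Nkx6-1 (at least 412-fold), H19 (ratio 1463, 260 to 58004, against 1 molecule), Gata2 (at least 232-fold) and Grap2 (at least 200-fold). Pkd2l1 and Gata2 are among the markers listed for naming the tail class, and Islr2 is among those for the neuroblast-like class.

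Both classes held molecules of the genes of GABA synthesis. Gad1, Gad2 and Slc32a1 are among the markers listed for naming the tail class, so their presence there is not a separate result. Neuroblast-like over tail GABAergic cells, the ratio was 1.30 for Gad1, 1.01 (0.77 to 1.33) for Gad2 and 0.70 for Slc32a1, the vesicular GABA transporter gene, and 0 of 5 listed genes of GABA synthesis and transport were called. Gad1 stood at 867 CPM (810 to 926) in neuroblast-like and 669 CPM (555 to 799) in tail GABAergic cells, and Dcx at 1795 CPM and 1532 CPM. Of 11 ventral forebrain factors tested, 4 were called higher in neuroblast-like cells, among them Sp9 and Etv1, 2 were lower, among them Ebf1, and 5 were not called, among them Meis2, with a ratio of 1.30 (1.16 to 1.46). Of 12 listed spinal GABAergic factors 11 were in the counts and 4 reached the molecule minimum: Gata2, Gata3, Tal1 and Nkx6-1. All 4 were called lower, as were 1.2% of all genes tested. They reached the minimum through the tail cells, and Gata2, Gata3 and Tal1 are among the markers listed for naming that class. These calls are therefore not independent of the class. Foxn4, Pax2, Pax8, Lbx1 and Sox14 gave 0 molecules in the tail GABAergic cells, Lhx1 gave 4 and Lhx5 gave 21. Gata2 was at 691 CPM (575 to 824) and Tal1 at 747 CPM (626 to 884) in tail GABAergic cells, with 0 and 1 molecules among neuroblast-like cells.

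Over the whole tail library, 14 of 1964 cells held 19 Dlx molecules, 11 of them a single one, and 5 of 1945 did after thinning (0.257%). Of these molecules Dlx5 gave 7, Dlx6 gave 6 and Dlx1, Dlx2 and Dlx6os1 gave 2 each. In 10 of the 14 cells only Dlx5 or Dlx6 was found, and 7 of the 14 lay in tail cluster 2 (220 cells). That cluster and tail cluster 11 (74 cells) also had enough neuroblast markers to take the name neuroblast-like, but cluster 2 was led by Dbx1, Miat, Htr3a and Dll3, and Dbx1 is a homeobox gene known from the spinal cord. In tail cluster 11 the 5 genes gave 0 molecules, which allows 29.6 CPM. In tail cluster 2 the summed level was 28.4 CPM (11.4 to 58.4), 4 of the 7 cells held Dlx6, 2 held Dlx5 and 1 held Dlx6os1, and 1.86% (0.509 to 4.69) held a Dlx molecule after thinning. The interval of that share overlapped that of the brain's microglia-like cells, which is too wide to tell background from low expression. None of the 14 barcodes was in the brain table, and 0 were marked as doublets. Dlx1 was found in the tail as 2 molecules in 1 cycling-like cell and Dlx2 as 2 molecules in 1 keratinocyte-like cell.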

How the data were processed

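Single-cell 3′ transcriptomes of Sox1-GFP+ cells from mouse brain and tail were analysed, 1 library each. The authors deposited molecule counts per cell and gene, made with the BD Rhapsody WTA Analysis Pipeline (version 1.10.1 per the file headers, GENCODE vM19, GRCm38), and the counts corrected for molecular-index errors were used. The submitters' processing notes also name UMI-tools 1.0.1, STAR 2.7.1a and featureCounts 1.6.4.

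A cell was kept if its gene number was above 200 and below 4000 and if mt- genes gave less than 40% of its molecules. Each library was clustered with Seurat 5.3.0 (R 4.3.3; log-normalised, 2000 variable genes before the Dlx genes were left out, 30 components, resolution 0.8). A cluster was named from marker genes that were at least 2-fold higher than in other cells and found in at least 10% of its cells, with at least 3 markers. Scrublet in scanpy 1.11.5 marked 76 brain and 5 tail cells as doublets, which were kept. Shares, with exact Clopper-Pearson intervals, were read in cells thinned to 400 molecules. Sums were given as CPM with exact Poisson intervals, and ratios with exact conditional binomial intervals (scipy 1.17.1), all at 95%. A count of 0 was taken to allow 3 counts. TMM factors came from edgeR 4.0.16. On simulated counts for neuroblast-like over astroglial-like cells (6765 genes tested), 100 of 100 genes raised 8-fold, 69 of 100 lowered 8-fold and 0 unchanged genes were called, and 95.8% of intervals held the true ratio.

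Named were the 5 Dlx genes, the listed genes, class markers, the 5 genes most like the summed Dlx level and the 5 with the largest ratios in each direction between neuroblast-like and tail GABAergic cells. The members and lists were chosen with earlier results of these data known, and the comparisons with cluster 9 and between cycling-like and neuroblast-like cells after the clusters were seen. A few genes that this rule names are not reported here.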

Additional observations from a re-analysis of the deposited data

How the results depend on the processing

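No paired analysis was possible because there was 1 library per tissue and no result came from a test. Of 150 values recomputed for the main results, 112 stayed and 38 moved, and none reversed. Of 201 others, 159 stayed and 42 moved. The order of Dlx2 between cycling-like and neuroblast-like cells changed when cells were assigned by single genes, as given above. Leaving out barcodes found in both libraries, an alternative chosen after seeing the data, moved none. In neuroblast-like cells the summed Dlx level (4940 CPM) was 5144 under 20% mitochondrial molecules, 5124 without doublets, 4403 when cells were assigned by single genes, 4286 at resolution 1.2, 4642 with TMM and 4573 with median-ratio scaling. The share with any Dlx gene (82.5%) was 76.6% by single genes, 76.8% at resolution 1.2, 89.9% without thinning and 93.5% thinned to 800 molecules. For 2 or more genes (45.6%) these were 42.4%, 41.3%, 60.8% and 72.4%, and for Dlx1 with Dlx2 (17.5%) 15.4% by single genes, 29.8% without thinning and 35.1% at 800. In cycling-like cells the level (2924 CPM) was 3226 by single genes, 3526 at resolution 1.2 and 2775 with median-ratio scaling. The share with any gene (57.8%) was 65.4%, 72.4%, 76.3% and 73.6% by single genes, at resolution 1.2, without thinning and at 800. For 2 or more genes (23.4%) it was 31.5% at resolution 1.2, 60.5% without thinning and 49.2% at 800, and for Dlx1 with Dlx2 (10.8%) 41.7% and 26.1% under the last 2 of these. In astroglial-like cells the share was 1.12% and the level 53.4 CPM by single genes, with 14.7 CPM at resolution 1.2, 16.2 with TMM and 15.7 with median-ratio scaling. With at least 20 molecules, 198 genes in place of 124 were called between neuroblast-like and tail GABAergic cells. With at least 200, 65 were called there, 936 in place of 1534 between neuroblast-like and astroglial-like cells and 820 in place of 1467 between cycling-like and astroglial-like cells, which follows from the number of genes tested. The number of cells limits the tail: 0 of 113 thinned GABAergic cells allows a share of up to 2.65%.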

Other observations

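Over the 21 clusters of both libraries with at least 50 cells, the levels of 11342 genes were set beside the summed Dlx level by Pearson's r of log2(CPM + 10), as a description over clusters that share libraries. Among the 5 highest were Synpr (r = 0.916), the gene of the synaptic vesicle protein synaptoporin, 3110039M20Rik (0.898) and Islr2 (0.873). Synpr stood at 266 CPM in neuroblast-like and 43.2 CPM in cycling-like cells, and Islr2 at 1100 and 225 CPM.

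The other Dlx genes had few molecules. Dlx1as, antisense to Dlx1, gave 28 molecules in the brain, 27 of them in neuroblast-like or cycling-like cells, and 0 in the tail. Dlx3, known from skin and placenta, gave 0 molecules in the brain and 7 in the tail, of which 5 were in keratinocyte-like cells. Dlx4 gave 6 in the brain and 12 in the tail, and its antisense gene Dlx4os 3 and 4.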
